A study of Mus musculus with 24 samples.

Results

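CD4+ T cells that overexpress human β-catenin were profiled before they entered an allogeneic host and 7 days after. The comparison rests on 6 of the 24 RNA sequencing libraries of the series, taken by their labels: 3 of Cat-Tg CD4+ T cells sorted from spleen without transfer (pre-tx) and 3 of Cat-Tg CD4+ T cells recovered from recipients on day 7 post-transplantation (post-tx). Cat-Tg mice carry an N-terminally truncated human β-catenin in the p1017 vector, which drives expression from the proximal Lck promoter in T lineage cells. They were made by injection into FVB mice, kept heterozygous and backcrossed to C57BL/6, the background strain given for all 6 libraries. The methods describe the mice as matched for age and sex and give an age range for the study as a whole, and the labels give no age for a library. For the post-tx group, Cat-Tg CD4+ and CD8+ T cells were mixed 1:1 and injected together with WT T cell-depleted bone marrow into lethally irradiated BALB/c mice, and donor cells were sorted from spleen by their H-2Kb. C57BL/6 donor cells carry H-2Kb, the WT marrow included, so it separates donor from host but not transferred T cells from marrow progeny. Pre-tx cells saw neither irradiated host nor marrow graft, so both enter the comparison together with the alloantigen. Pre-tx and post-tx cells came from different mice, 3 in each group, and Cat-Tg T cells moved into a syngeneic host were not analysed here. The RNA of the transgene itself was not analysed here.

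CD4+ T cells that meet foreign MHC molecules behave as they do toward a pathogen. T cell receptor and costimulatory signals take them out of quiescence, cytokines such as IL-2 and IL-12 steer them toward effector states, and they divide, switch to aerobic glycolysis, lose the receptors that hold them in lymph nodes and begin to secrete cytokines. In graft-versus-host disease (GVHD), effector CD4+ T cells of the donor are a main source of IFN-γ and GM-CSF, regulatory CD4+ T cells marked by Foxp3 restrain them, and β-catenin acts in T cells as the partner of TCF-1 and LEF-1.

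At day 7, 42 of 49 genes of cell division were called higher, as were Tbx21, Gzmb and Gzma, and 13 of 19 genes of naive and memory T cells were called lower. Of all tested genes, 13.2% were called higher and 27.7% lower. Mki67, Ifng and Ccl1 were higher in every post-tx library than in any pre-tx library, Ctla4 was lower with a change close to the threshold, and Foxp3 did not pass the test. Most genes that mark macrophages and red cell precursors rose as well, transcripts of the Y chromosome were nearly absent post-tx, and these measurements are given before the results they touch.

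The promoters of 5 genes from the groups that rose together are shown first, from 250 bases before to 50 bases after the transcription start, 5′ to 3′ on the strand of the gene, from RefSeq on GRCm38.p6. The cell cycle genes are Mki67 at chr7:135716330-135716629 on the minus strand, Cdk1 at chr10:69352863-69353162 on the minus strand and Mcm5 at chr8:75109259-75109558 on the plus strand. Isg15 at chr4:156200769-156201068 on the minus strand and Gbp2 at chr3:142620413-142620712 on the plus strand stand for the interferon-stimulated genes. Capitals mark the cell cycle homology region TTTGAA and the CCAAT box in Mki67 and Cdk1, the E2F site (searched as TTTCCCGC and TTTGGCGC) and the CCAAT box in Mcm5, and the interferon-stimulated response element (ISRE, searched as GAAA, any 2 bases and GAAA again) in Isg15 and Gbp2, each on either strand.
Mki67: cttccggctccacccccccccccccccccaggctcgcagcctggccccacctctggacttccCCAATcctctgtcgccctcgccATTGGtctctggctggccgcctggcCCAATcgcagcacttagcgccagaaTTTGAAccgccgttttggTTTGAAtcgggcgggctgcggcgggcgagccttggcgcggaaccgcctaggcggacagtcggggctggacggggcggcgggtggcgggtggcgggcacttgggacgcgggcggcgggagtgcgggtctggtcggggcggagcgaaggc
Cdk1: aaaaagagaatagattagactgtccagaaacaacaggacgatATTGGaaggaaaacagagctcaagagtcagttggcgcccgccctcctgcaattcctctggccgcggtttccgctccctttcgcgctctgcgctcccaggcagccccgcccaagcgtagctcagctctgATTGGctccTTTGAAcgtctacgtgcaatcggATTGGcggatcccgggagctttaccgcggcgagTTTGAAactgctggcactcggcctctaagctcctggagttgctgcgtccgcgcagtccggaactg
Mcm5: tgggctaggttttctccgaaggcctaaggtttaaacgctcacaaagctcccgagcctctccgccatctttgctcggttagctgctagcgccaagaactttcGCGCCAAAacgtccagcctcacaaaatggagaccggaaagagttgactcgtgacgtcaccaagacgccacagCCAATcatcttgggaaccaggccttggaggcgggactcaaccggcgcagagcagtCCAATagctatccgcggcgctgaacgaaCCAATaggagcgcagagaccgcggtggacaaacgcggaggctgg
Isg15: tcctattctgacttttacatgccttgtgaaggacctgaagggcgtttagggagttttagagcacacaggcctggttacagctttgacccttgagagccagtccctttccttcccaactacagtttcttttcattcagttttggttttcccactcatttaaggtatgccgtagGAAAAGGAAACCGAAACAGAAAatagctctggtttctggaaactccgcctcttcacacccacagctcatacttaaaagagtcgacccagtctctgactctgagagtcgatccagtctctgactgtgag
Gbp2: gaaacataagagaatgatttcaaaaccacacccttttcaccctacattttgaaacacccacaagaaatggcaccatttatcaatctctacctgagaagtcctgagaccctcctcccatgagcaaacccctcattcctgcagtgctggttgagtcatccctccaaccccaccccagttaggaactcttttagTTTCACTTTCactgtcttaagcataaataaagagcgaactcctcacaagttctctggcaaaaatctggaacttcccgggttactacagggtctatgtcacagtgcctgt

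Mki67 and Cdk1 each held 2 copies of TTTGAA and 3 CCAAT boxes, none of them overlapping. Isg15 held 3 copies of the ISRE that overlap each other, the one nearest to the start beginning 66 bases before it, and Gbp2 held 1, on the opposite strand. Promoter windows were found for 33 of the 42 cell cycle genes called higher (13.2% of all tested genes were), 37 windows in all. TTTGAA was in 45.9% of them, against 17.9% of all 32851 windows in the table and 13.5% of the windows of tested genes, and each of those windows also held a CCAAT box. E2F sites were in 18.9% of the cell cycle windows and in 1.56% of all windows. The ISRE was in 55.6% of the 18 windows of interferon-stimulated genes called higher, in 38.9% of the 18 windows of those not called and in 3.44% of all windows. These counts describe letters in the windows and carry no measurement of binding.

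Several properties of the libraries moved with the groups. Total estimated counts were 27015725, 20900404 and 19283369 in the pre-tx libraries and 11135713, 50519825 and 46196685 in the post-tx libraries. Spearman's rho between libraries over the tested genes was 0.929 to 0.943 within pre-tx, 0.943 to 0.971 within post-tx and 0.769 to 0.864 between the groups. Cd4 transcripts outnumbered Cd8a transcripts in all 6 libraries: Cd8a made up 1.27% to 3.39% of the sum of Cd4 and Cd8a counts pre-tx and 0.166% to 0.497% post-tx. The 3 WT CD4 pre-tx libraries went against their label, with Cd8a at 52.4% to 65.4% of that sum. They are in neither group compared, but they enter the gene filter, the scaling and the shared estimate of spread. Results without them are given.

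Levels are given in CPM, a library's counts of a gene scaled to a common total after TMM normalization. A gene was called at an adjusted p of at most 0.05 (Benjamini-Hochberg, edgeR quasi-likelihood test of 17237 genes) and a log2 fold change of 1 or more in either direction. Post-tx against pre-tx, 7041 genes were called, 40.8% of those tested, of which 2270 were higher (13.2%) and 4771 lower (27.7%). The 3 post-tx libraries did not overlap the 3 pre-tx libraries for 55.7% of all tested genes. Lower calls outnumbered higher calls among genes of low level. Among the 9110 genes with a mean of at least 10 CPM over the 6 libraries, 1859 were higher and 1412 lower, and in 929 of the lower calls every post-tx library had at most 3 counts. Between 15263 and 16919 genes exceeded 1 CPM in a pre-tx library and between 12312 and 12650 in a post-tx library.

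The split of the calls depended on the scaling, and the number of calls less so. The median log2 fold change of all tested genes was -0.38. With DESeq2 size factors it was -0.15, a shift of 0.23, and 3048 genes were higher and 4165 lower. Without the 3 WT pre-tx libraries 15605 genes were tested, their median was 0.10, the genes tested in both fits shifted up by a median of 0.33, and 3455 genes were higher and 3312 lower. With the 6 Cat-Tg CD4 libraries alone 2662 were higher and 3281 lower, with DESeq2 3240 were higher and 4681 lower, and with no filter 3296 were higher and 4808 lower. Gene lists below are given by their calls and median and carry no test of their own. Each is to be read beside all tested genes, of which 13.2% were higher and 27.7% lower at a median of -0.38. That share is weighted by genes of low level. Among the 9110 genes with a mean of at least 10 CPM, 20.4% were higher and 15.5% lower at a median of 0.20.

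**Figure D1:**
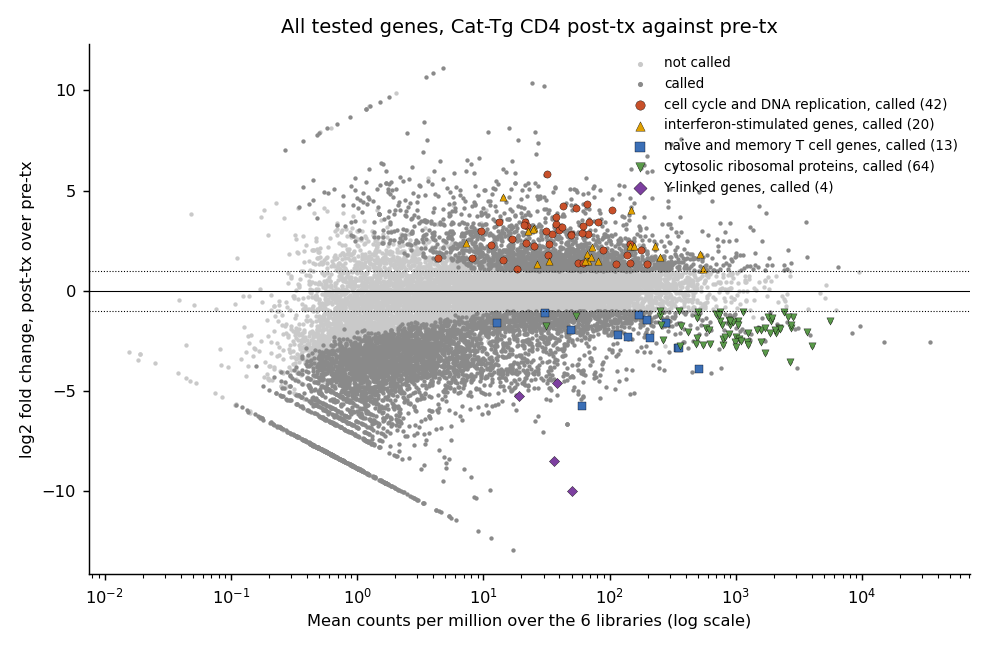
Log2 fold change, post-tx over pre-tx, of all 17237 tested genes against their mean CPM over the 6 libraries (log scale), with the called members of 5 lists marked and dotted lines at a log2 fold change of 1 and -1. Called cell cycle and interferon-stimulated genes lie above the upper line, called naive, ribosomal protein and Y-linked genes below the lower line, and the dense lower cloud is made of genes under 10 CPM.

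Transcripts of other cells differed between the groups (values in CPM). The summed level of 14 erythroid markers was 1606, 1938 and 2680 CPM pre-tx and 27465, 11011 and 4406 CPM post-tx, and 13 of the 14 rose. Of 15 macrophage and monocyte markers 12 rose and 2 fell, their sum going from 1942 to 2742 CPM pre-tx to 6611 to 8022 CPM post-tx. The 2 that fell were Ms4a7 and Lyz2, the latter at 857, 803 and 1049 CPM pre-tx and 216, 388 and 199 CPM post-tx. C1qa, a complement gene of tissue macrophages, was at 195, 116 and 140 CPM pre-tx and at 1387, 923 and 831 CPM post-tx. Neutrophil markers rose for 4 of 10.

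Other lists moved down. B cell markers fell for 13 of 15, although the list's sum overlapped between the groups (2758 to 4052 CPM against 1642 to 3174 CPM) because most of it was Ighm. Ms4a1, which encodes CD20, was at 103, 111 and 133 CPM pre-tx and 2.81, 2.83 and 2.5 CPM post-tx. Liver plasma protein genes fell for 12 of 12, from a sum of 89 to 243 CPM to 0.849 to 8.04 CPM, and pancreatic enzyme genes fell for 11 of 12. Of the remaining lists, 1 of 6 plasma cell markers and 3 of 7 NK cell markers fell, 2 of 8 dendritic cell markers rose and 2 fell, and none of 5 platelet markers was called. Y-linked genes fell for 4 of 4 tested: Ddx3y, an RNA helicase, was at 82, 137 and 80.7 CPM pre-tx and 0.291, 0.0194 and 0.106 CPM post-tx. Sex, as read from Y-linked transcripts, therefore cannot be told apart from the transplant in these 6 libraries. Because the libraries are bulk RNA, fewer cells of a type and less RNA per cell cannot be told apart either, and the part of other cells in the T cell results below was not tested.

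**Figure D2:**
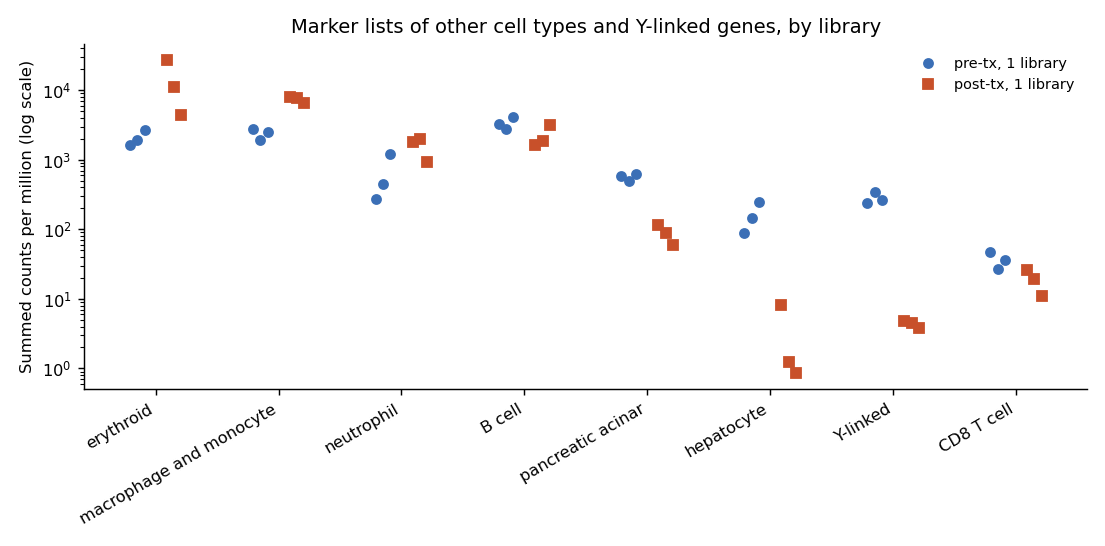
Summed CPM (log scale) of marker lists of other cell types and of Y-linked genes in each Cat-Tg CD4 library, with circles for the 3 pre-tx and squares for the 3 post-tx libraries. Erythroid and macrophage sums were higher in all 3 post-tx libraries, and pancreatic, hepatocyte and Y-linked sums were lower in all 3.

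Cell cycle genes rose nearly as a whole. Of 49 genes of DNA replication and mitosis 42 rose and none fell, with a median log2 fold change of 2.36. Summed over the list, the level was 933, 975 and 1148 CPM pre-tx, and 3418, 4695 and 4304 CPM post-tx. Its median stayed between 2.32 and 2.73 under all 18 alternatives for which it was computed.

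Mki67, the marker of cycling cells, was at 9.74, 19.6 and 14.7 CPM pre-tx and at 57.3, 150 and 112 CPM post-tx. Its log2 fold change was 2.86 (SE 0.378, edgeR adjusted p = 5.08e-05). Every post-tx library was above every pre-tx library, with replicate 1, the shallowest, the lowest of the 3. Rrm2, a subunit of ribonucleotide reductase that makes deoxynucleotides in S phase, was at 4.76, 17 and 14 CPM pre-tx and at 124, 242 and 222 CPM post-tx. It rose by 4.04 on the log2 scale (SE 0.423, edgeR adjusted p = 9.14e-06). Aurkb, a mitotic kinase of the chromosomal passenger complex, was the highest of the list, at 0.148, 2.74 and 0.507 CPM pre-tx and at 58.4, 72 and 57.2 CPM post-tx, a log2 fold change of 5.84 (SE 0.745, edgeR adjusted p = 3.89e-05). Its pre-tx values were spread over more than its post-tx values relative to their mean, and the groups were far apart.

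Mcm5, a subunit of the replicative helicase, was already at 81.1, 61.2 and 68.4 CPM pre-tx and was at 289, 291 and 277 CPM post-tx. Its log2 fold change was 2.02 (SE 0.256, edgeR adjusted p = 3.74e-05), and its 3 post-tx values were close together. Top2a, which untangles DNA before mitosis, rose from 9.42 to 15.8 CPM pre-tx to 54.6 to 154 CPM post-tx, and Ccnb1, the cyclin that starts mitosis, from 8.91 to 17.6 CPM to 39.2 to 114 CPM. Cdk1, its kinase partner, was at 7.42, 14.6 and 22.1 CPM and then at 32.3, 64.4 and 53 CPM, a log2 fold change of 1.77 (SE 0.376, edgeR adjusted p = 0.00193). For Mki67, Top2a, Ccnb1 and Cdk1, post-tx replicate 1 was the lowest of the 3 post-tx libraries. That library also held the most erythroid transcripts, and their part in this was not tested.

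**Figure D3:**
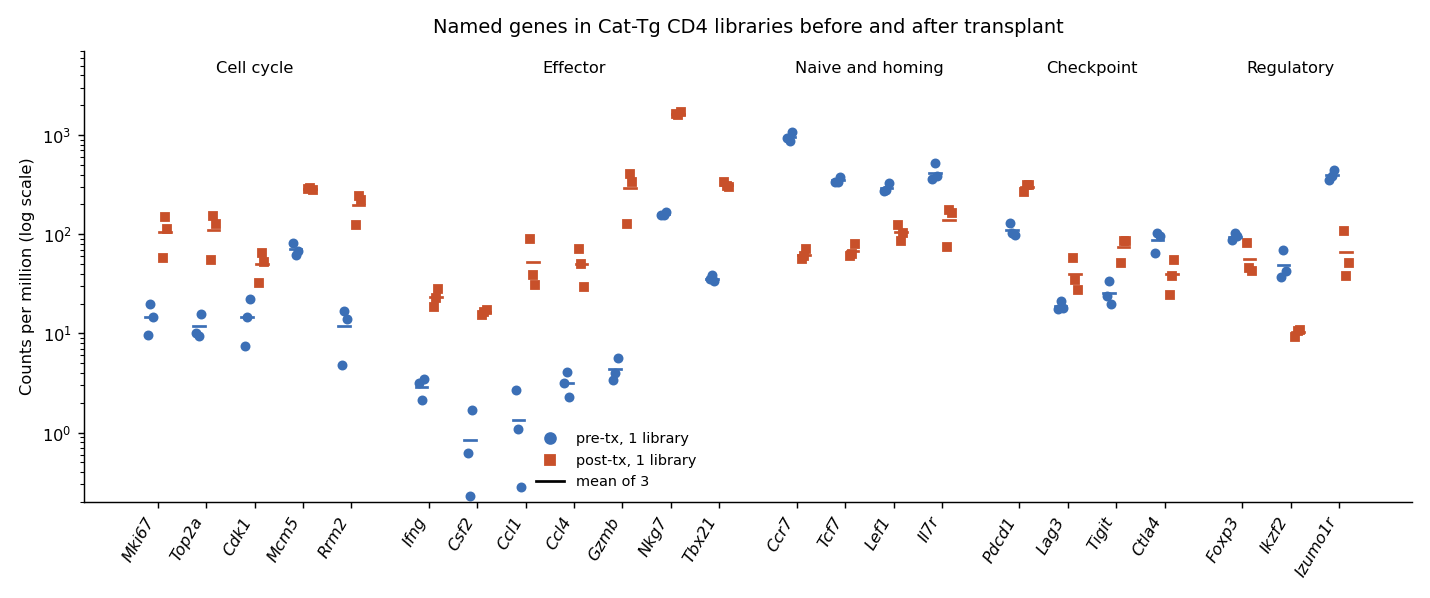
CPM (log scale) of 23 named genes in each Cat-Tg CD4 library, with circles for pre-tx, squares for post-tx and short lines for the mean of 3. Cell cycle and effector genes sat higher in all 3 post-tx libraries, Ccr7, Tcf7, Lef1 and Il7r lower in all 3, and the checkpoint receptors went both ways.

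Effector cytokines changed as a mixture. Of 15 tested, 4 rose (Ifng, Csf2, Csf1 and Il3) and 2 fell (Il17f and Ltb), with a median of -0.10. Ifng, the signature cytokine of Th1 cells, was at 3.14, 2.11 and 3.49 CPM pre-tx and at 18.4, 23 and 27.8 CPM post-tx. It rose by 2.98 on the log2 scale (SE 0.418, edgeR adjusted p = 8.35e-05), with all post-tx libraries well above the pre-tx ones. Csf2, which encodes GM-CSF, the cytokine that recruits and activates myeloid cells, was at 0.627, 0.228 and 1.69 CPM pre-tx and at 15.2, 16.6 and 17.3 CPM post-tx, a log2 fold change of 4.28 (SE 0.768, edgeR adjusted p = 0.000589). Il3 had no counts in any pre-tx library and reached 0.194, 0.832 and 0.594 CPM post-tx, at least 3.15-fold higher than the level of 3 counts in the pre-tx library with the smallest scaled total. All post-tx libraries held it, each under 1 CPM.

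Other cytokine genes did not follow. Tnf, which encodes TNF-α, was at 3.69, 4.85 and 8.33 CPM pre-tx and 10.8, 11 and 6.02 CPM post-tx, overlapping groups with an edgeR adjusted p of 0.227. Il2, the T cell growth factor, was at 2.18, 1.31 and 2.03 CPM and then at 0.581, 1.41 and 0.976 CPM (edgeR adjusted p = 0.373). Il17f, a Th17 cytokine, fell from 2.51, 2.46 and 0.338 CPM to 0.194, 0.0581 and 0.106 CPM (log2 fold change -4.02, SE 1.14, edgeR adjusted p = 0.0105), and it missed the threshold under limma-voom (adjusted p = 0.052).

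Chemokine ligands rose for 5 of 11, with 1 lower and a median of 1.09. Ccl1, a ligand of CCR8 that activated T cells secrete, was at 2.66, 1.09 and 0.281 CPM pre-tx and at 89.4, 38.6 and 30.6 CPM post-tx. It was the highest of this list, with a log2 fold change of 5.24 (SE 0.65, edgeR adjusted p = 3.27e-05), and its replicates spread widely within each group without meeting. Ccl3 and Ccl4, inflammatory chemokines, went from 0.148 to 0.457 CPM to 6.62 to 15.8 CPM and from 2.31 to 4.11 CPM to 29.3 to 70.4 CPM. Both are also made by macrophages, most of whose markers rose in the same libraries, and the part of those cells was not tested.

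Ccl5, a chemokine typical of effector and memory T cells, was at 113, 116 and 106 CPM pre-tx and 271, 165 and 125 CPM post-tx. The groups did not overlap, but the gene missed the threshold (log2 fold change 0.74, SE 0.297, edgeR adjusted p = 0.0529), which it passed in 3 alternatives, with DESeq2 at 1.00. Xcl1, which attracts cross-presenting dendritic cells, fell from 7.46, 14.3 and 6.19 CPM to 1.26, 0.31 and 1.15 CPM (log2 fold change -3.41, SE 0.786, edgeR adjusted p = 0.00321).

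Genes that keep T cells naive and circulating through lymph nodes were lower as a group. Of 19 naive and memory genes 13 fell and none rose, with a median of -1.60. Ccr7, the chemokine receptor for entry into lymph nodes, was at 934, 870 and 1075 CPM pre-tx and at 55.9, 60.6 and 70.3 CPM post-tx. It fell by 3.94 on the log2 scale (SE 0.243, edgeR adjusted p = 1.11e-07), with little spread in either group. Il7r, the receptor for the survival cytokine IL-7, fell from 357, 517 and 383 CPM to 74.7, 174 and 165 CPM, a log2 fold change of -1.60 (SE 0.406, edgeR adjusted p = 0.00558) that missed the threshold without the filter (-1.24, adjusted p = 0.0518). Dapl1, a transcript of resting T cells, had the largest decrease of the list, from 85.4 to 153 CPM to 1.93 to 2.81 CPM.

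Tcf7 and Lef1, which encode the DNA-binding partners of β-catenin TCF-1 and LEF-1, were both lower. Tcf7 was at 338, 333 and 381 CPM pre-tx and at 59.8, 63.4 and 80.1 CPM post-tx, a log2 fold change of -2.37 (SE 0.231, edgeR adjusted p = 5.45e-06). Lef1 was at 275, 278 and 325 CPM and then at 123, 85.9 and 104 CPM, a log2 fold change of -1.48 (SE 0.229, edgeR adjusted p = 0.000178). Neither gene's groups came near each other. Bach2, a repressor of effector genes in resting T cells, fell from 16.3 to 23.1 CPM to 4.69 to 7.55 CPM.

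The wider β-catenin and Wnt list had 6 of 30 genes higher and 5 lower at a median of 0.07. Over all tested genes 13.2% were higher and 27.7% lower at a median of -0.38. Among those with a mean of at least 10 CPM, 20.4% were higher and 15.5% lower at a median of 0.20. Ctnnb1, the endogenous mouse β-catenin gene, was at 81.1, 49.5 and 82.3 CPM pre-tx and at 92.3, 157 and 163 CPM post-tx. Its log2 fold change of 0.95 (SE 0.291, edgeR adjusted p = 0.0152) stayed under the fold threshold, and it passed in 9 alternatives, for example without post-tx replicate 1 at 1.17. Reads of the human transgene that fit the mouse transcript would be counted here, which was not tested. Axin2, a feedback target of β-catenin, was low, at 3.76, 1.31 and 2.7 CPM pre-tx and 8.81, 4.12 and 5.52 CPM post-tx, and was not called (log2 fold change 1.23, SE 0.656, edgeR adjusted p = 0.134), except with DESeq2 (1.48) and without the 3 WT pre-tx libraries (1.56). Myc, a growth regulator that is a target of both β-catenin and T cell receptor signaling, rose from 32.3, 38.3 and 33.5 CPM to 209, 74 and 85.8 CPM (log2 fold change 1.82, SE 0.371, edgeR adjusted p = 0.00149). Pygo1, a coactivator of β-catenin, was near the limit of detection and fell from 0.507 to 3.08 CPM to 0.0212 to 0.194 CPM.

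Transcription factors of effector cells rose for 13 of 20, with 1 lower and a median of 1.46. Tbx21, which encodes the Th1 factor T-bet, was at 35, 38.7 and 33.4 CPM pre-tx and at 335, 306 and 298 CPM post-tx. It rose by 3.13 on the log2 scale (SE 0.222, edgeR adjusted p = 2.6e-07), with tight replicates on both sides. Bhlhe40, which sustains cytokine production in Th1 cells, had the largest increase of the list, from 22, 11.3 and 17.8 CPM to 643, 530 and 577 CPM (log2 fold change 5.10, SE 0.285, edgeR adjusted p = 5.01e-08). Id2, an antagonist of E proteins, rose from 201 to 250 CPM to 706 to 1031 CPM, and Prdm1, which encodes Blimp-1, from 2.91 to 6.92 CPM to 20.5 to 48.1 CPM. Both promote effector over memory fates.

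Irf4, a factor whose level follows the strength of T cell receptor signals, rose from 5.43 to 7.71 CPM to 12.7 to 19.3 CPM. Eomes, the T-box relative of T-bet, rose from 1.88, 2.51 and 3.71 CPM to 6.97, 14 and 11.7 CPM, with a call that was lost without pre-tx replicate 1 (edgeR adjusted p = 0.0597) or pre-tx replicate 2 (edgeR adjusted p = 0.05, log2 fold change 1.96). Batf, an AP-1 factor of activated T cells, was at 142, 140 and 160 CPM pre-tx and at 289, 157 and 156 CPM post-tx, with overlapping groups and an edgeR adjusted p of 0.185.

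Of 13 cytotoxic genes 6 rose, 7 were not called and none fell. The median was 1.60, and 1.01 without pre-tx replicate 2. Gzmb, which encodes granzyme B, was at 3.43, 4 and 5.68 CPM pre-tx and at 126, 408 and 339 CPM post-tx. Its log2 fold change of 6.06 (SE 0.461, edgeR adjusted p = 5.18e-07) was the largest of the list. Gzma, granzyme A, rose from 10.4, 7.43 and 7.09 CPM to 83.5, 236 and 276 CPM (log2 fold change 4.58, SE 0.446, edgeR adjusted p = 5.45e-06). In both granzymes the lowest post-tx library was replicate 1.

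Nkg7, a membrane protein of cytotoxic granules, was abundant in both groups, at 158, 156 and 166 CPM pre-tx and at 1634, 1601 and 1700 CPM post-tx, and rose by 3.36 on the log2 scale (SE 0.229, edgeR adjusted p = 2.08e-07). Prf1, which encodes perforin, was at 50.3, 54.5 and 43.2 CPM and then at 51.4, 91.2 and 58.1 CPM, overlapping groups with an edgeR adjusted p of 0.164. Gzmk was at 26.6, 28.4 and 34.1 CPM and then at 17, 37.2 and 45.3 CPM (edgeR adjusted p = 0.729). Serpinb9, which protects the cell from its own granzyme B, rose from 30 to 54.5 CPM to 58 to 218 CPM.

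NK cells also express these genes. Ncr1, an NK cell receptor, was at or below 2.7 CPM in all 6 libraries, and Klrb1c, which encodes NK1.1, fell from 51.2 to 91.5 CPM to 1.94 to 3.75 CPM. Klrd1 and Klrk1, receptor genes that NK cells share with activated T cells, were not called. Klrd1 was at 35.1, 48.4 and 28 CPM pre-tx and at 9.49, 52.4 and 65.8 CPM post-tx, lowest in post-tx replicate 1 as Gzma and Gzmb were among the post-tx libraries. Klrk1 was at 36.4, 39.7 and 34.3 CPM and then at 9.88, 35.6 and 34.8 CPM. The part of NK cells in the granzyme values was not tested.

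Homing genes went in both directions. Of 25 chemokine receptor, integrin and adhesion genes 11 rose and 4 fell, with a median of 0.63. Cxcr6, a receptor for migration into liver and other tissues, was at 188, 244 and 253 CPM pre-tx and at 256, 882 and 914 CPM post-tx, a log2 fold change of 1.58 (SE 0.391, edgeR adjusted p = 0.00483). Ccr2 rose from 42.1 to 59.4 CPM to 63.6 to 177 CPM and Cd44, the adhesion molecule of antigen-experienced cells, from 57.3 to 101 CPM to 174 to 261 CPM. For Cxcr6 and Ccr2, replicate 1 lay just above the pre-tx range and the other two post-tx libraries far above it.

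Cxcr3, the receptor for IFN-γ-induced chemokines, was at 147, 137 and 159 CPM pre-tx and at 298, 235 and 255 CPM post-tx. It had an edgeR adjusted p of 0.00607 with a log2 fold change of 0.83 (SE 0.214), under the fold threshold, and passed in 4 alternatives, for example at 1.08 with DESeq2. Cx3cr1, the highest log2 fold change among the called homing genes (2.47, SE 0.614, edgeR adjusted p = 0.00502), rose from 3.58, 8.4 and 1.01 CPM to 15.6, 23.7 and 32.4 CPM. It is a receptor of terminal effector T cells and also of monocytes, most of whose markers rose too.

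Checkpoint receptors went in both directions, 7 of 13 higher and 3 lower, with a median of 1.08. Pdcd1, which encodes PD-1, was at 129, 104 and 98.8 CPM pre-tx and at 269, 316 and 311 CPM post-tx, and rose by 1.43 on the log2 scale (SE 0.21, edgeR adjusted p = 0.00012). Tigit rose from 23.8, 33.8 and 19.6 CPM to 50.7, 85.9 and 86 CPM (log2 fold change 1.53, SE 0.301, edgeR adjusted p = 0.00116). Havcr2, which encodes TIM-3, rose by 2.28 on the log2 scale although the lowest post-tx library, at 17.9 CPM, was below the highest pre-tx library, at 18.6 CPM. Cd244a, which encodes 2B4, rose by 2.90 (SE 0.474, edgeR adjusted p = 0.000284).

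Lag3, an inhibitory receptor for MHC class II, was at 17.5, 21 and 18.2 CPM pre-tx and at 58, 34.9 and 27.4 CPM post-tx. Its log2 fold change was 1.08 (SE 0.304, edgeR adjusted p = 0.00985) and dropped to 0.72, under the threshold, without post-tx replicate 1. Ctla4, which competes with CD28 for B7 ligands, was lower, at 64.2, 103 and 96.2 CPM pre-tx and 24.5, 38.3 and 55.5 CPM post-tx. The groups did not overlap, and the log2 fold change was -1.15 (SE 0.348, edgeR adjusted p = 0.0145). It was -0.91 without post-tx replicate 1, and 6 other alternatives also ended the call. Cd200, a ligand for an inhibitory receptor on myeloid cells, fell from 71.5 to 78.4 CPM to 12.5 to 18.2 CPM (log2 fold change -2.25, SE 0.27, edgeR adjusted p = 2.62e-05).

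Of 17 genes of costimulatory receptors and ligands, mostly of the TNF family, none was called higher and 2 fell, with a median of 0.06. Cd69, an early activation marker that also holds cells in lymphoid tissue, fell from 95.7, 180 and 144 CPM to 33.9, 67.8 and 68.5 CPM (log2 fold change -1.30, SE 0.365, edgeR adjusted p = 0.00986). Without the 3 WT pre-tx libraries its log2 fold change was -0.96, under the threshold. Fas, the death receptor, fell from 41.1, 70.3 and 41.8 CPM to 5.62, 17.9 and 16.7 CPM, with an edgeR adjusted p of 0.0221 that became 0.073 without post-tx replicate 1 and 0.0799 without pre-tx replicate 2. Tnfrsf4 (OX40) was at 145, 169 and 169 CPM and then at 288, 173 and 191 CPM (edgeR adjusted p = 0.203). Tnfrsf9 (4-1BB) and Cd40lg had overlapping groups, with edgeR adjusted p of 0.242 and 0.21.

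Of 17 genes of regulatory T cells 4 rose and 6 fell, where 13.2% of all tested genes rose and 27.7% fell. Among tested genes with a mean of at least 10 CPM, 20.4% rose and 15.5% fell at a median of 0.20. The list's median was -0.18, against -0.38 for all tested genes, and it ran from -0.63 to -0.03 when 1 library was left out. Foxp3, the factor that defines regulatory T cells, was at 86.6, 102 and 95.9 CPM pre-tx and at 80.8, 45.9 and 42.9 CPM post-tx. The groups did not overlap, but the change was not called (log2 fold change -0.75, SE 0.356, edgeR adjusted p = 0.0959). It rested on post-tx replicate 1, without which the log2 fold change was -1.09 and passed the test (edgeR adjusted p = 0.0256). Ikzf2, which encodes Helios of thymus-derived regulatory T cells, fell from 37.1, 68.6 and 42.2 CPM to 9.3, 10.6 and 10.9 CPM (log2 fold change -2.26, SE 0.372, edgeR adjusted p = 0.0003). Izumo1r, the folate receptor 4 of resting regulatory and follicular T cells, fell from 355, 390 and 444 CPM to 108, 37.7 and 50.8 CPM (log2 fold change -2.60, SE 0.33, edgeR adjusted p = 3.84e-05). For all 3 genes every post-tx library was below every pre-tx library.

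Other genes of the list are used by effector cells as well. Il2ra, the high-affinity chain of the IL-2 receptor, was at 56.4, 61.7 and 46.2 CPM and then at 46, 89 and 84.1 CPM (edgeR adjusted p = 0.245). Nrp1, neuropilin-1, rose from 39.2, 50.5 and 50 CPM to 87.6, 137 and 122 CPM (log2 fold change 1.31, SE 0.332, edgeR adjusted p = 0.00559). Il1rl1, the IL-33 receptor, rose from 3.6 to 10.7 CPM to 24.2 to 72.7 CPM.

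Receptors and signaling genes for other interleukins were higher for 14 of 29 and lower for 2, with a median of 0.89. Il12rb2, the IL-12 receptor chain whose expression commits cells to the Th1 lineage, was at 2.14, 2.06 and 6.19 CPM pre-tx and at 29.4, 85.9 and 60.5 CPM post-tx, the largest increase of the list (log2 fold change 4.09, SE 0.507, edgeR adjusted p = 3.24e-05). Il2rb, shared by the IL-2 and IL-15 receptors and known as CD122, rose from 436, 418 and 449 CPM to 1855, 1352 and 1540 CPM (log2 fold change 1.87, SE 0.207, edgeR adjusted p = 1.48e-05). Both receptors signal for growth or Th1 differentiation. Il6st, the signaling chain of the IL-6 receptor, fell from 72.7 to 136 CPM to 26.6 to 63.7 CPM, with a log2 fold change of -0.99, under the threshold, without the filter. Il6ra was at 73.1, 48.2 and 45.1 CPM and then at 25.7, 42 and 40.5 CPM (edgeR adjusted p = 0.0939). Ifngr1, the ligand-binding chain of the IFN-γ receptor, rose from 125 to 163 CPM to 380 to 536 CPM.

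Interferon-stimulated genes rose for 20 of 40, with none lower and a median of 1.22. Irf7, which amplifies the type I response, rose from 92.6, 69.9 and 80.7 CPM to 440, 363 and 330 CPM (log2 fold change 2.22, SE 0.243, edgeR adjusted p = 1.33e-05). Gbp2, a GTPase induced mainly by IFN-γ, rose from 56.7, 48.3 and 49 CPM to 119, 300 and 293 CPM (log2 fold change 2.21, SE 0.322, edgeR adjusted p = 0.000114). In both genes the groups did not overlap.

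Oas2, a sensor of double-stranded RNA, had the largest increase of the list, from 1.25, 0.628 and 1.29 CPM to 14.8, 32.9 and 35 CPM (log2 fold change 4.69, SE 0.736, edgeR adjusted p = 0.000203). Isg15, a ubiquitin-like modifier, rose from 9.34, 24.3 and 19.2 CPM to 67.8, 42.4 and 36.8 CPM (log2 fold change 1.47, SE 0.39, edgeR adjusted p = 0.00713). Tap1, a peptide transporter of MHC class I presentation, had the smallest called increase, from 296 to 389 CPM to 690 to 842 CPM (log2 fold change 1.10), and its log2 fold change was 0.99, under the fold threshold, without pre-tx replicate 2.

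Genes of the T cell receptor complex and its proximal signaling were higher for 6 of 31 and lower for 4, with a median of 0.18. The 4 lower were the receptor chains Cd3d, Cd3g, Trbc1 and Trbc2, and the 6 higher were Cd4, Lcp2, Ptpn6, Nfatc1, Nfatc2 and Nfkb1. The list's sum was 15709 to 19177 CPM pre-tx and 11853 to 13035 CPM post-tx. Cd3e, a signaling chain of the complex, was at 470, 437 and 478 CPM pre-tx and at 508, 434 and 466 CPM post-tx (edgeR adjusted p = 0.934). Cd4 rose from 410, 246 and 358 CPM to 757, 785 and 829 CPM (log2 fold change 1.23, SE 0.274, edgeR adjusted p = 0.00262). For Cd3e the groups overlapped, and for Cd4 they did not. Trbc1, a constant region of the receptor β chain, fell from 1870, 2117 and 2510 CPM to 586, 415 and 467 CPM (log2 fold change -2.15, SE 0.259, edgeR adjusted p = 2.69e-05). Trbc1 and Trbc2 are near-identical, reads can be split between them, and both fell. Nfkb1, the p50 subunit of NF-κB, rose from 26.8, 40.8 and 71.2 CPM to 347, 245 and 316 CPM (log2 fold change 2.71, SE 0.344, edgeR adjusted p = 3.8e-05).

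Glycolysis genes rose for 7 of 18, with none lower and a median of 0.80. Slc2a1, the glucose transporter GLUT1, was at 28.2, 28.3 and 38.9 CPM pre-tx and at 112, 48 and 58.5 CPM post-tx. Its call (log2 fold change 1.19, SE 0.349, edgeR adjusted p = 0.0123) was lost without post-tx replicate 1, where the log2 fold change was 0.74. Hk2, an inducible hexokinase, rose from 3.76, 0.343 and 3.04 CPM to 10.9, 8.5 and 21.5 CPM (log2 fold change 2.51, SE 0.713, edgeR adjusted p = 0.0105) and was not called from length-scaled TPM (0.95).

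Of 77 nuclear encoded genes of the respiratory chain 7 rose and 16 fell, with a median of -0.22 that was 0.12 without the filter or without the 3 WT pre-tx libraries, and of 13 mitochondrially encoded genes 12 fell, from 3.89% to 6.19% of all counts to 0.554% to 1.85%. Cytosolic ribosomal protein genes fell for 64 of 78 with a median of -1.73, from 12.1% to 15.5% of counts to 3.61% to 5.81%. All 3 lists are of short transcripts, with a median effective length of 398 bases for the ribosomal proteins, 514 bases for the mitochondrially encoded genes and 437 bases for the nuclear encoded genes, against 1853 bases for all tested genes. With all tested genes in 5 classes of effective length, the median log2 fold change was -0.85 in the shortest class, -0.07 in the fourth and -0.57 in the longest. The part of transcript length in the decreases was not tested.

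In the BCL2 family, 6 of 16 genes rose and 3 fell, with a median of 0.71 that was 0.30 without post-tx replicate 1. Bcl2, which blocks mitochondrial apoptosis, rose from 63.1, 65.5 and 60.6 CPM to 156, 137 and 148 CPM (log2 fold change 1.22, SE 0.247, edgeR adjusted p = 0.00138). Its antagonist Bcl2l11, known as BIM, rose from 16.7, 16.7 and 21 CPM to 52.8, 47.7 and 42.5 CPM (log2 fold change 1.39, SE 0.258, edgeR adjusted p = 0.000745). Bak1, which opens the mitochondrial membrane, had the highest log2 fold change among the called members (3.32, SE 0.569, edgeR adjusted p = 0.00041). Pro- and anti-apoptotic members were therefore both among the calls.

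Immediate early and heat shock genes rose for 6 of 20 and fell for none, with a median of 0.67 that was 0.14 without post-tx replicate 1. Atf3, a stress-induced factor, was at 0.111, 0.171 and 1.58 CPM pre-tx and at 15.8, 22.8 and 21.8 CPM post-tx (log2 fold change 5.05, SE 0.8, edgeR adjusted p = 0.000222). Fos and Jun, the AP-1 subunits that respond within minutes to receptor signals and to cell handling, rose by 1.57 and 1.86 on the log2 scale. Pre-tx replicate 2 was the lowest for both, at 0.971 CPM for Fos and 0.286 CPM for Jun. Fos lost its call without that library (edgeR adjusted p = 0.0749), without pre-tx replicate 3 (0.0629) and without post-tx replicate 1 (0.0645), and Jun lost its call when pre-tx replicate 1 (edgeR adjusted p = 0.0799) or post-tx replicate 1 (0.0814), 2 (0.0911) or 3 (0.068) was left out. Jun also lost it without the filter (edgeR adjusted p = 0.118), with the 6 Cat-Tg CD4 libraries alone (0.076) and with a block on the replicate number (0.0712).

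**Figure D4:**
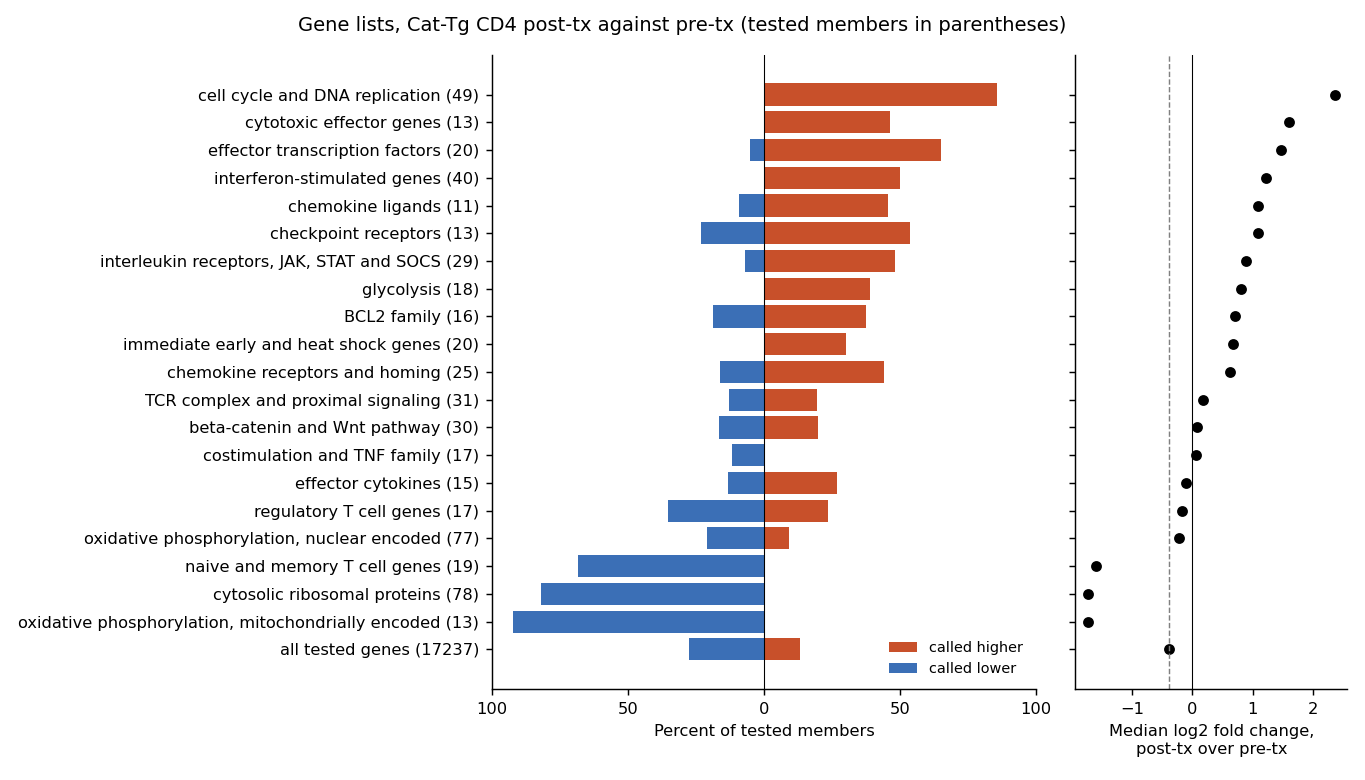
Percent of tested members called higher and called lower in each T cell and metabolic list (left) and median log2 fold change, post-tx over pre-tx (right), with all tested genes at the bottom and their median as a dashed line. Among these lists, which leave out the markers of other cells and the alloactivation markers, cell cycle genes had the highest median (2.36) and the mitochondrially encoded and ribosomal protein genes the lowest (-1.73 for both).

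Among the 12 genes with the largest called increases were chemokine, interferon-induced and blood precursor genes. Ccl24, an eotaxin that macrophages secrete, rose from 4.76, 3.43 and 2.87 CPM to 423, 691 and 698 CPM (log2 fold change 7.35, SE 0.499, edgeR adjusted p = 2.08e-07). Ifitm1, an interferon-induced membrane protein, rose from 2.03, 5.31 and 4.28 CPM to 867, 540 and 785 CPM (log2 fold change 7.57, SE 0.396, edgeR adjusted p = 3.57e-08), and Ifi44l, another interferon-induced gene, from 0.0738 to 0.4 CPM to 11.5 to 62.1 CPM. Adam8, a metalloprotease of activated leukocytes, rose from 3.88 to 5.83 CPM to 301 to 475 CPM, and Ggt1, a glutathione hydrolase of the cell surface, from 1.55 to 4.95 CPM to 281 to 533 CPM.

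Gfi1b, a transcription factor of red cell and platelet precursors, had the highest log2 fold change of these, from 0 to 0.169 CPM pre-tx to 43.4, 34.4 and 17.3 CPM post-tx (log2 fold change 8.12, SE 1.27, edgeR adjusted p = 0.000194). Its order over the post-tx libraries was that of the erythroid markers. The others of the highest 12 were Gm43302, Gm1673, Eva1a, 1810055G02Rik, Eno1b and Lgals7. Eno1b is a near copy of the glycolytic gene Eno1, and reads can be split between them.

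Among the 12 largest decreases 6 were genes of the Y chromosome. Srsy was at 23.8, 52.7 and 26.5 CPM pre-tx and at 0 in every post-tx library, at least 118-fold lower against 3 counts in the post-tx library with the smallest scaled total, and Gm33815, Gm29644, Gm21773, Gm28079 and Gm21292 followed. Gm2663 on chromosome 6 was at 11.4, 35.1 and 7.43 CPM pre-tx and at 0 post-tx, at least 61.9-fold lower. The pancreatic amylase genes Amy2a2, Amy2a3 and Amy2a4 carried the same values, 74.8 to 110 CPM pre-tx and 0.291 to 1.88 CPM post-tx, and the counts of these near-identical copies cannot be told apart. Serpina9, of germinal center B cells, was also among them.

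The change in CD4+ cells was compared with that in Cat-Tg CD8+ T cells, which were sorted into 6 libraries of their own at the same times. By the methods both cell types were sorted from each mouse, so the CD4+ and CD8+ libraries share mice, and the labels do not say which. All 12 Cat-Tg libraries were fitted together without a term for the mouse, and the difference between the changes was tested in 16234 genes. It was called for 289 genes, 1.78% of those tested, 193 with a more positive change in CD4+ and 96 with a more negative one. Blocking on the replicate number left 158 calls, and of the genes named here Ctla4, Gbp2, Nkg7 and Mcm5 lost the call (edgeR adjusted p of 0.0835, 0.135, 0.0907 and 0.0864). In this fit 5692 genes were called for the change in CD4+ cells and 4833 for that in CD8+ cells. Named genes in which the difference was called were mostly receptors and cytotoxic genes.

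Pdcd1 rose in both, by 1.60 in CD4+ and by 6.98 in CD8+ cells on the log2 scale, a difference of -5.38 (SE 0.387, edgeR adjusted p = 3.56e-06). In CD8+ cells it was at 8.66, 7.94 and 5.22 CPM pre-tx and at 756, 811 and 1190 CPM post-tx, so the CD4+ cells started higher and ended lower. Ctla4 had a log2 fold change of -0.98 in CD4+ cells in this fit, under the fold threshold, and rose by 1.39 in CD8+ cells, a difference of -2.37 (SE 0.51, edgeR adjusted p = 0.0239). Foxp3 was not called in CD4+ cells (log2 fold change -0.56) and rose by 3.29 in CD8+ cells, a difference of -3.85 (SE 0.915, edgeR adjusted p = 0.0409). In CD8+ cells Foxp3 went from 0.861 to 8.74 CPM to 26 to 53.1 CPM, against 38.8 to 76 CPM in CD4+ cells post-tx. These differences for Ctla4 and Foxp3 passed the test in 11 and 4 of 17 alternatives.

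Il2ra, Tnfrsf9 and Tnfrsf4, uncalled in CD4+ cells, rose in CD8+ cells by 5.76, 3.46 and 3.67 on the log2 scale, and all 3 differences were called in 17 of 17 alternatives. Il2ra in CD8+ cells went from 0.348 to 1.29 CPM to 35 to 58.4 CPM, against 43.3 to 78.8 CPM in CD4+ cells post-tx. Tnfrsf4 in CD8+ cells went from 1.37 to 5.85 CPM to 44 to 61.3 CPM, against 153 to 271 CPM in CD4+ cells post-tx. Tnfrsf9 ended higher in CD8+ cells, at 169 to 238 CPM against 27.8 to 45.5 CPM. Ccr7 fell by 3.77 in CD4+ and by 7.37 in CD8+ cells, a difference of 3.61 (SE 0.478, edgeR adjusted p = 0.000812). In the post-tx CD8+ libraries it was at 8.32, 3.94 and 12.4 CPM. Prf1 and Gzmk, uncalled in CD4+ cells, rose in CD8+ cells by 2.87 and 3.41.

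Bcl2 rose in CD4+ cells by 1.40, while its log2 fold change in CD8+ cells was -0.47 (edgeR adjusted p = 0.184), a difference of 1.87 (SE 0.384, edgeR adjusted p = 0.0186). Gbp2 had a log2 fold change of 2.38 in CD4+ and 0.47 in CD8+ cells, a difference called in 7 of 17 alternatives. For the interferon-stimulated list the difference was called for 6 of 40 genes, all with the more positive change in CD4+ cells. Of all tested genes 1.78% were called, 193 of the 289 in that direction. In other lists calls were more positive and more negative in CD4+ cells for 1 and 5 of 13 checkpoint genes and 1 and 5 of 13 cytotoxic genes. They were so for 1 and 4 of 17 regulatory genes and 4 and 2 of 25 homing genes. For Mki67, Ifng and Ccl1 the difference was -0.43, -2.05 and 1.42 on the log2 scale, with edgeR adjusted p of 0.853, 0.272 and 0.67, so a difference was not shown. The median change of the erythroid markers on the log2 scale was 3.24 in CD4+ and -0.58 in CD8+ libraries, that of the macrophage markers 2.28 and 2.19, and the part of those cells in the differences was not tested.

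**Figure D5:**
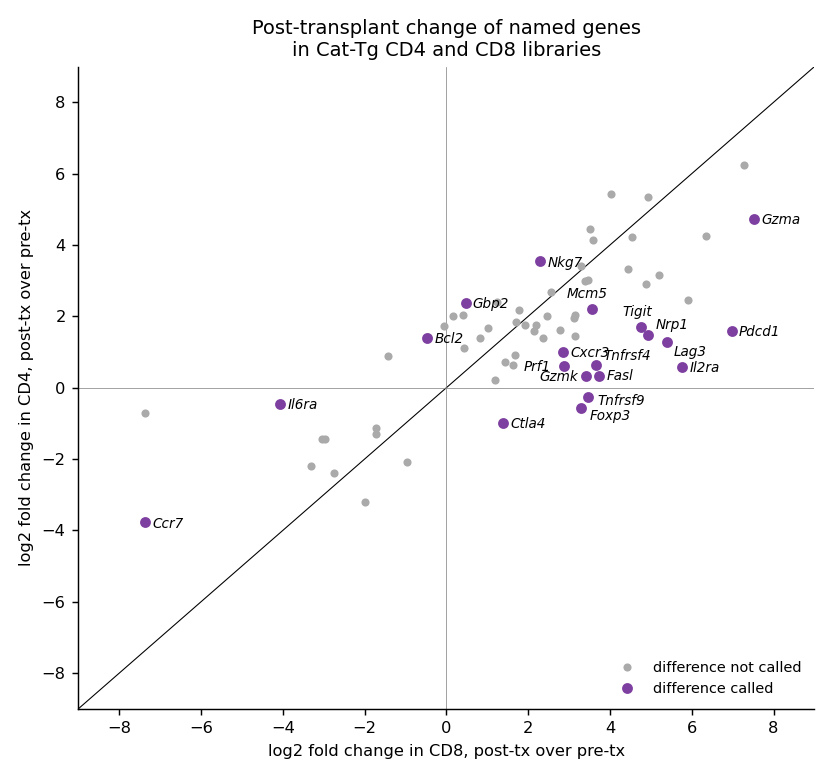
Log2 fold change, post-tx over pre-tx, of 68 named genes in Cat-Tg CD4 libraries (vertical) against Cat-Tg CD8 libraries (horizontal), with the diagonal of equal change and named points where the difference was called. Pdcd1, Il2ra, Lag3, Tigit and Tnfrsf9 lie below the diagonal and Ccr7 and Il6ra above it.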

How the data were processed

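Per the file headers and the study's methods, the authors pseudoaligned the reads of each library (SMART-Seq HT cDNA, Nextera XT) with kallisto 0.46.2 and deposited an estimated count and a TPM per transcript, the TPM being the estimated count over effective length scaled to the same sum in each library. Replicates were not pooled. The release of the transcript index is not given in the sources used here, and the submitters' processing notes name mm9 and limma. TPM served only for an alternative, scaled by length and library size.

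Deposited estimated counts were summed to genes through GENCODE M21 transcript identifiers and rounded to whole numbers. Genes over 1 CPM in at least 3 of the 12 CD4 libraries (Cat-Tg and WT, pre-tx and post-tx) were kept, scaled by TMM and fitted together with edgeR 4.0.16 in R 4.3.3 (quasi-likelihood F-test, group as the only term, Benjamini-Hochberg adjustment), so that all 4 groups shared an estimate of spread. The study's methods applied limma to normalized values. Estimated counts call for a count test, and limma-voom (limma 3.58.1) and DESeq2 1.42.0 were alternatives. The CD4 and CD8 changes were compared by an interaction term in the 12 Cat-Tg libraries. The code was tested on simulated data.

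The members and gene lists were chosen with earlier results of these data known. Genes are named by rule: the alloactivation markers, chosen members of each list, the highest and lowest called members of a list, and the 12 highest and 12 lowest called protein-coding genes outside the marker lists, with no overlap between groups and a mean of 10 CPM or more in the higher one. Some genes the rule names are not reported here. Where a group had at most 3 counts in every library, a fold change is a lower bound against 3 counts in its library with the smallest TMM-scaled total, and such floors cover counting error only. Alternatives changed the scaling, filter, model, gene set, thresholds and libraries. Promoters are RefSeq windows on GRCm38.p6. GENCODE symbols that did not match a RefSeq window have none.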

Additional observations from a re-analysis of the deposited data

Results flagged for a closer look

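The change from pre-tx to post-tx differed between Cat-Tg CD4+ and CD8+ T cells for 20 of the 68 named genes compared. This was by the interaction test over 12 libraries, which called 1.78% of all 16234 tested genes. The named genes were chosen with earlier results of these data known. Values are the log2 fold change in CD4+ minus that in CD8+ cells. The change was more negative in CD4+ cells for the checkpoint receptors Pdcd1 (-5.38), Lag3 (-4.11), Tigit (-3.04) and Ctla4 (-2.37) and for the TNF family genes Tnfrsf9 (-3.73), Fasl (-3.41) and Tnfrsf4 (-3.04). The same direction was found for Il2ra (-5.17), Foxp3 (-3.85), Nrp1 (-3.45), the granule genes Gzmk (-3.08), Gzma (-2.79) and Prf1 (-2.26), the homing receptor Cxcr3 (-1.84) and the replication gene Mcm5 (-1.37). It was more positive in CD4+ cells for Ccr7 (3.61), Il6ra (3.61), Gbp2 (1.90), Bcl2 (1.87) and Nkg7 (1.25). Foxp3 and Mcm5 passed the test in 4 of 17 alternatives, Gbp2 in 7, Nkg7 in 10, Ctla4 in 11, Gzma in 13, and Bcl2 in 15. The other 13 of the 20 genes passed in all 17.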

How the results depend on the processing

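The cause of the changes below was not tested unless stated. Against 7041 calls, a log2 threshold of 2 left 4642 (887 higher), by construction fewer, and 3455 genes were higher without the 3 WT pre-tx libraries. Leaving out 1 library gave 5571 to 6718. With the replicate block 6983 genes were called (2243 higher, 4740 lower). Same-numbered libraries correlated at 0.107, 0.0576 and 0.0387 in their deviations, not all over 0.1, so the numbers were not taken as pairs, although every library correlated best with its own number. Calls of a CD4 to CD8 difference, 289, were 709 with DESeq2, 158 with the replicate block and 174 to 347 with 1 library left out, including 177 without CD4 pre-tx replicate 1, 183 without CD4 pre-tx replicate 2 and 174 without CD8 post-tx replicate 2. Without the filter and without the 3 WT pre-tx libraries, list medians were 2.73 and 2.70 (cell cycle), -1.24 and -1.27 (naive), 1.79 and 1.98 (effector transcription factors), 0.39 and 0.39 (β-catenin and Wnt), 0.55 and 0.51 (T cell receptor), 1.27 and 1.22 (interleukin receptors), 1.10 and 1.13 (glycolysis) and 0.12 and 0.12 (nuclear respiratory chain). With DESeq2 size factors and with DESeq2 they were -1.37 and -1.38 (naive), 1.70 and 1.70 (effector transcription factors) and 1.04 and 1.04 (glycolysis). The effector factors were at 1.80 with the 6 Cat-Tg CD4 libraries alone, and the markers Mki67, Ifng, Ccl1, Ctla4 and Foxp3 at 2.25 from length-scaled TPM. With 1 library left out the ranges were -0.25 to 0.37 (effector cytokines, highest without pre-tx replicate 2), 0.68 to 1.05 (glycolysis), 1.01 to 1.79 (cytotoxic, lowest without pre-tx replicate 2), 0.30 to 0.88 (BCL2 family, lowest without post-tx replicate 1), -0.63 to -0.03 (regulatory), -0.06 to 0.13 (costimulatory), 0.02 to 0.22 (T cell receptor), 0.02 to 0.15 (β-catenin and Wnt), -0.45 to -0.13 (nuclear respiratory chain) and 0.14 to 0.92 (immediate early, lowest without post-tx replicate 1).

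Some uncalled genes changed sign. Il2ra was at -0.22 from length-scaled TPM, Ighm at 0.10 without the filter and 0.08 without the WT pre-tx libraries, and Cd3e at -0.02 with protein-coding genes only and -0.03 after thinning. With 1 library left out Cd3e ranged from -0.04 to 0.08, Fasl from -0.04 to 0.42 and Gzmk from -0.12 to 0.47, and the CD4 to CD8 difference ranged from -0.91 to 0.51 for Mki67 and from -0.58 to 2.48 for Ccl1. Alternatives chosen after seeing the data gave 6912 calls without Y-linked and marker genes and 7152 with fold changes centred on their median. Depth limits genes near the floor of 3 counts, up to 0.171 CPM pre-tx and 0.291 CPM post-tx.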
